A study of Mus musculus with 10 samples.

Results

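Dll1, Jag2 and Epha5 encode membrane proteins that signal between touching cells, and each carried 1 listed coding mutation in mouse proximal colon organoids. They were chosen by gene name from the deposited exome results, and they account for 3 of the 163 listed mutations and 3 of the 156 genes. All 3 mutations were missense, as were 151 of the 163 listed mutations. They were listed in the same culture, BrafV600E culture 1, and had the same base change, C to A on the reference strand. The choice of genes was made with these results in view, so their culture, their base change and their p-values are descriptions and were not tested.

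Delta-like and Jagged proteins are Notch ligands. A ligand on 1 cell binds a Notch receptor on its neighbour, the receptor is cut, and its inner part moves to the nucleus and switches on genes of the Hes and Hey families. In the intestinal crypt, Notch signalling keeps stem and progenitor cells from becoming secretory cells, and Dll1 is found on secretory progenitors. Eph receptors are receptor tyrosine kinases that bind ephrins on adjacent cells, and Eph-ephrin contacts are known for positioning cells along the crypt, a role best described for the EphB receptors.

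The organoids came from colon crypts of male C57BL/6 mice about 40 days old that carried 1 silent, Cre-activable BrafV600E allele. A lentivirus delivered Cre, which switches the allele on, or the empty backbone (EV), which leaves it silent, so that the control cultures carry the silent allele too. Lists were used for 3 BrafV600E cultures, grown for 5 months and then for 3 weeks in Base medium (without stem-cell niche factors), and for 2 EV cultures, grown for 12 and 14 months and then for 3 weeks in full medium. The culture medium described in the labels' protocols holds Wnt, R-spondin, Noggin and EGF. The other 5 EV cultures of the series, 3 grown for 5 months and 2 for 2 months, had no list here and were not analysed. The groups differ in oncogene, medium and months in culture at once, and these cannot be told apart. The lists held 31, 22 and 46 mutations in BrafV600E cultures 1, 2 and 3, and 24 and 40 in the 12-month and 14-month cultures. Read depth and the share of mutant reads are unknown, and so is the culture that served as comparator, so the files do not say how many cells carried a mutation or when it arose. A list of DNA changes holds no expression values, and neither the labelled tissue nor the activity of these genes in it could be checked.

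Dll1, a Delta-like Notch ligand, carried C15368681A, written as the reference base, the GRCm38 position and the listed base, with positions counted from the start of the chromosome. Dll1 lies on chromosome 17 from 15367354 to 15376932 on the minus strand. The mutation fell 8251 bp from the 5' end of the annotated gene, 86.1% of the way along its 9579 bp, introns included. The authors' p-value was 1.4e-09, the 10th smallest of the 31 mutations of the culture. No other mutation of that culture was listed on chromosome 17.

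Jag2, a Jagged Notch ligand, carried C112920424A on chromosome 12. The gene spans 112907803 to 112929812 on the minus strand, and the mutation fell 9388 bp from its 5' end, 42.7% along its 22010 bp. Its authors' p-value was 3.16e-05, which ranked 22nd of the 31. This was the largest p-value of the 3, and no other mutation of that culture was listed on chromosome 12.

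Epha5, an EphA receptor tyrosine kinase, carried C84331764A on chromosome 5. Epha5 spans 84054761 to 84417818, again on the minus strand, and the mutation lay 86054 bp from the 5' end, 23.7% along its 363058 bp. The authors' p-value of 4.58e-11 ranked 7th of the 31 and was the smallest of the 3. The culture had no other listed mutation on chromosome 5. Epha5 was the 3rd longest of the 29 genes listed in the culture, and 98.1% of protein-coding genes are shorter. Jag2 ranked 16th and Dll1 23rd by length, against a median of 25659 bp for the 26 other genes. All of these lengths are genomic spans, so they do not measure the coding sequence at risk.

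**Figure D1:**
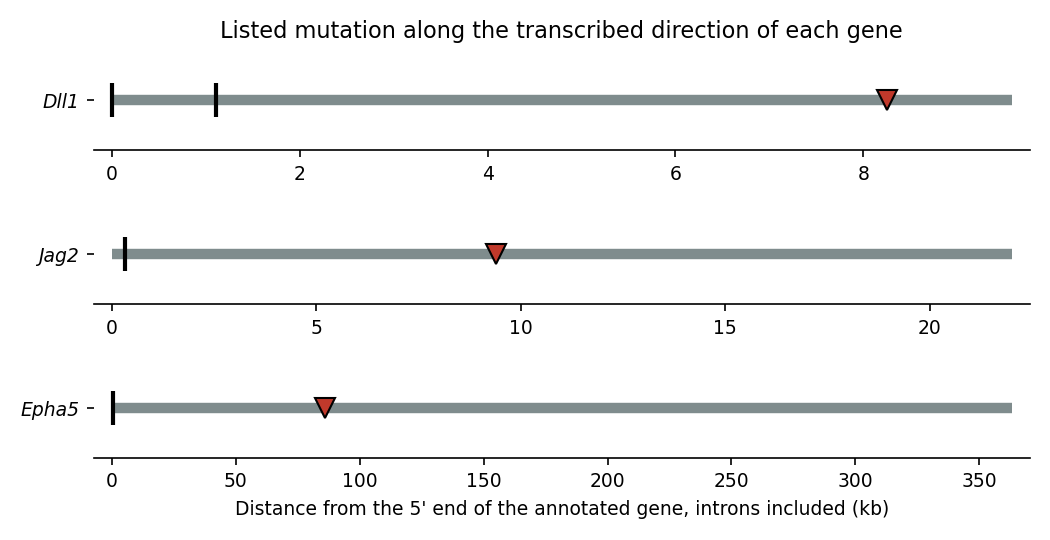
Place of the listed mutation (red triangle) in each gene, as distance in kb from the 5' end of the annotated gene along the transcribed direction, introns included; black ticks are RefSeq start sites, and each gene has its own scale. The mutation lay 86.1% along Dll1, 42.7% along Jag2 and 23.7% along Epha5.

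None of the 3 positions was listed in another culture. The nearest listed mutation on the same chromosome in any culture was 4987860 bp from the Dll1 position, 27137433 bp from the Jag2 position and 4136054 bp from the Epha5 position. The 3 mutations were thus single events in the lists. This was the usual state, because the 31 mutations of BrafV600E culture 1 fell in 29 genes. Close pairs of C-to-A changes were found in that culture in Lrp1, 2 bp apart, and in Ctnnb1, 6 bp apart. None of the 3 genes carried the authors' COSMIC cancer-gene mark. The share of all listed mutations with that mark is not given here, so nothing is read from its absence. Exon, codon and protein positions were not used here, so the amino acid changes are not given.

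Most genes of both pathways had no listed mutation. The list of 48 Notch pathway genes held 3 mutations, in Dll1 and Jag2 and in Neurl1a, and the list of 22 Eph receptors and ephrins held 1, in Epha5. Among the Notch genes, 2 of 7 ligands and 1 of 4 genes for ligand endocytosis were listed. The 4 receptors, the 9 genes of receptor cleavage, the 5 sugar transferases, the 4 genes of the nuclear complex, the 8 inhibitors or turnover genes and the 7 targets had 0 listed mutations. In the ephrin system, 1 of 9 EphA receptors was listed, with 0 of 5 EphB receptors and 0 of 8 ephrins. As background, 0.132% of the 21900 annotated protein-coding genes were listed in BrafV600E culture 1, and 0.708% were listed in any of the 5 cultures. The lists were written knowing that the 3 genes are listed, and nothing is read from the comparison.

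Neurl1a was the only gene of these lists mutated outside culture 1. It encodes a homologue of Neuralized, a ubiquitin ligase that in Drosophila promotes the uptake of Delta and with it Notch signalling. BrafV600E culture 3 carried T47179498C in this gene, a missense mutation on chromosome 19, with an authors' p-value of 2.37e-09. Neurl1a lies between 47178820 and 47259441 on the plus strand. T-to-C changes made up 10 of the 43 other substitutions of that culture (23.3%, exact Clopper-Pearson 95% interval 11.8 to 38.6%), so that neither culture nor base change was shared with Dll1, Jag2 and Epha5.

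By culture, the 70 genes of both lists took 3 of 31 mutations in BrafV600E culture 1 (9.68%, exact Clopper-Pearson 95% interval 2.04 to 25.8%) and 1 of 46 in culture 3 (2.17%, interval 0.0550 to 11.5%). BrafV600E culture 2 had 0 of 22, which by a limit of 3 counts allows a share of up to 13.6% (exact interval up to 15.4%). The 12-month culture had 0 of 24 and the 14-month culture 0 of 40. By the same limit these allow up to 12.5% and 7.5% (exact intervals up to 14.2% and 8.81%). The 3 mutations of culture 1 are the ones the gene choice rests on, so these shares are a description and cultures were not compared by them. Intervals and limits cover counting error only. Without culture 1, both lists together held 1 mutation in place of 4.

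Each base change is named from the pyrimidine of its pair, which counts a listed G-to-T as C-to-A, and the 3 mutations were left out of the comparison with their own culture. C-to-A made up 15 of the 27 other substitutions of BrafV600E culture 1 (55.6%, exact Clopper-Pearson 95% interval 35.3 to 74.5%). The Notch ligands and the ephrin receptor thus carried the most frequent base change of their culture. T-to-G followed with 4 of 27 (14.8%), and each of the other 4 classes had 2 of 27 (7.41%). In the 4 other cultures together, C-to-A made up 30 of 125 substitutions (24.0%, interval 16.8 to 32.5%). Those cultures ranged from 20.5% in BrafV600E culture 3 to 28.6% in BrafV600E culture 2. The pooled interval covers counting error only and not the spread between cultures. Culture 1 was not tested against the other cultures.

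**Figure D2:**
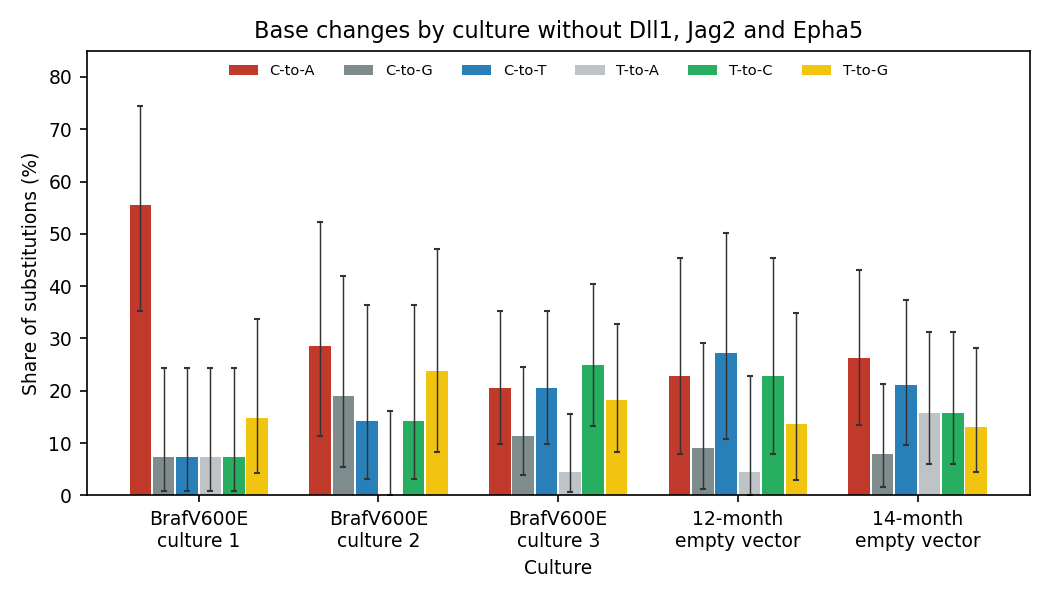
Share of each base change (%, collapsed to the pyrimidine) among the substitutions of each culture, without Dll1, Jag2 and Epha5; bars are shares and lines exact Clopper-Pearson 95% intervals. C-to-A stands at 55.6% in BrafV600E culture 1 and between 20.5% and 28.6% in the other 4 cultures.

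Over cultures, the C-to-A share without the 3 mutations was 34.9% ± 18.4 (SD, n = 3) with BrafV600E and 24.5% ± 2.54 (SD, n = 2) in the long-term EV cultures. The difference of 10.3 percentage points was smaller than the SD among the BrafV600E cultures. A two-sided exact permutation test over 10 splits gave p = 0.8, where the smallest p possible is 0.1. With that limit, and with the base change taken from mutations of culture 1, the test cannot decide whether the groups differ. The difference rested on culture 1, and without that culture it was -0.00854 points. The p-value ranks the observed difference among the 10 splits of these cultures. Nothing says that the BrafV600E cultures came from separate mice, so it does not extend beyond them.

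The strand of each gene gives the change on the coding strand, the strand that reads like the mRNA. The table lists C-to-A for Dll1, Jag2 and Epha5, and all 3 genes are on the minus strand, so each is G-to-T on the coding strand. Of the other 15 C-to-A mutations of the culture, 5 were listed as C-to-A and 10 as G-to-T. Gene strand was known for 13 of the 15, and 7 of these 13 were G-to-T on the coding strand (53.8%, exact Clopper-Pearson 95% interval 25.1 to 80.8%). Of the 13, 3 (in Pkd1l2, Mroh8 and Calcoco1) combined a listed C-to-A with a minus-strand gene as the 3 signalling genes did. A listed C-to-A in a plus-strand gene was found 2 times. Listed G-to-T was found 4 times in plus-strand and 4 times in minus-strand genes. In the 4 other cultures, gene strand was known for 27 of the 30, and 12 of these 27 were G-to-T on the coding strand (44.4%, interval 25.5 to 64.7%). Both intervals include an even split between the strands, and 50.1% of protein-coding genes with a known strand are on the minus strand.

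**Figure D3:**
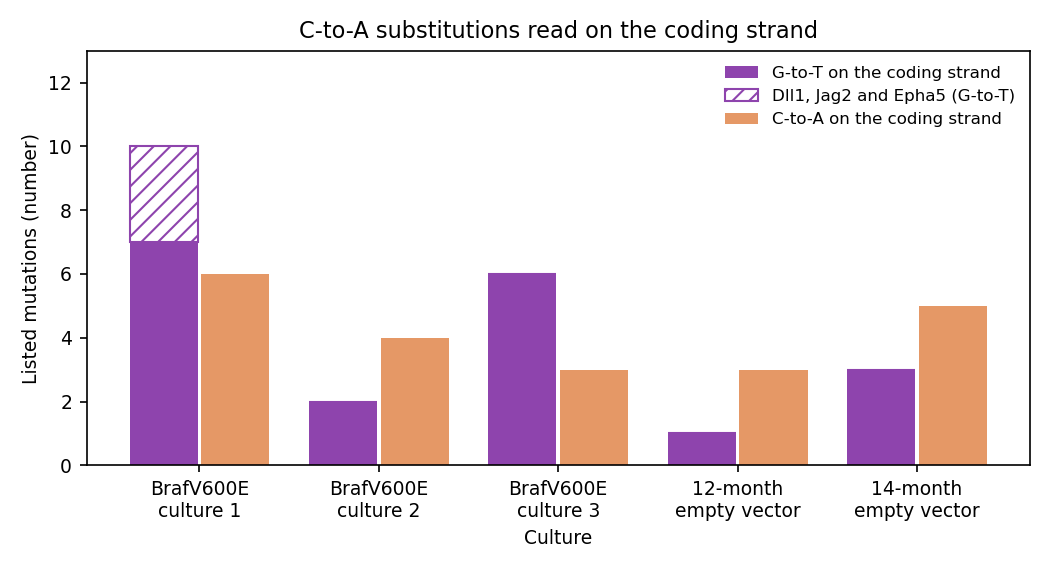
Number of C-to-A substitutions (collapsed to the pyrimidine) with a known gene strand that read as G-to-T or as C-to-A on the coding strand of their gene, in each culture; hatching marks Dll1, Jag2 and Epha5. BrafV600E culture 1 has 7 G-to-T and 6 C-to-A mutations besides the 3 hatched ones.

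The authors' p-values placed the 3 mutations inside the range of their culture. On the -log10 scale they were 8.85 for Dll1, 4.50 for Jag2 and 10.3 for Epha5. The 15 other C-to-A mutations ran from 1.78 to 20.9 with a median of 7.57, and the 12 substitutions of the other classes ran from 1.38 to 12.7 with a median of 5.50. Dll1 and Epha5 lay above both medians and Jag2 below both. At a p-value of 1e-05 or below, Dll1 and Epha5 remained and Jag2 did not, where 64.5% of the mutations of the culture pass. The test behind these p-values is not given in the sources used here, so nothing is read from them about the number of cells that carry a mutation.

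**Figure D4:**
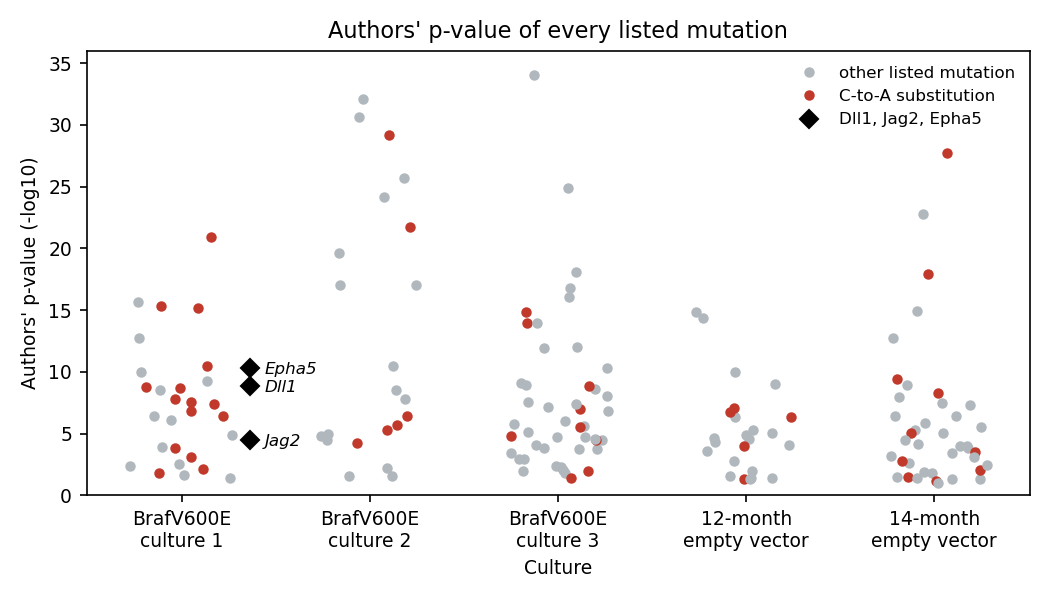
Authors' p-value (-log10) of every listed mutation by culture; diamonds are Dll1, Jag2 and Epha5, red points other C-to-A substitutions and grey points the remaining mutations, with points spread sideways for legibility. Epha5 (10.3), Dll1 (8.85) and Jag2 (4.50) lie within the range of culture 1.

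The mutations most like each of the 3 were taken as those of the same culture, base change and consequence with the nearest -log10 p, among 14 candidates. Nearest to Dll1 were both Lrp1 mutations, at 8.76 and 8.67, and Tmprss9 at 7.81. Lrp1 encodes an endocytic receptor of the LDL receptor family, and Tmprss9 a membrane-bound serine protease. Epha5 lay nearest to Ykt6, a SNARE protein of vesicle fusion, at 10.4, followed by the same Lrp1 pair. Jag2 lay nearest to Zic2, a zinc-finger transcription factor, at 3.85, to Calcoco1 at 3.10 and to Tln2, a talin that links integrins to actin, at 6.42. The 18 C-to-A mutations of culture 1, the 3 included, fell in 16 genes on 13 chromosomes.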

How the data were processed

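Exome libraries of 10 organoid cultures were sequenced as paired ends (TruSeq, Illumina HiSeq), per the labels' protocols. The submitters' processing notes name the builds mm10 and GRCm38. For the aligner, caller, filters, comparator and test, nothing is given in the sources used here. In the deposited table, mutations of 5 cultures have a p-value each, as the authors deposited it. The table holds no read counts, so the depth is unknown. Table names were matched to cultures by the sample descriptions.

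Genes, spans and assembly GRCm38.p6 come from RefSeq (163 of 163 mutations lay in their gene, 4 through older symbols). Strand came from RefSeq promoters and was known for 130 of 155 substitutions. Shares have exact Clopper-Pearson 95% intervals, a count of 0 a limit of 3 counts, and both cover counting error only. Group means were compared by a two-sided exact permutation test over cultures. Scripts were tested on simulated data (Python 3.11.15, SciPy 1.17.1).

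Members and gene lists were chosen with earlier results of these data known. The genes named are the 3 members, every listed gene of the Notch and ephrin lists and, for each member, the 3 mutations of the same culture, base change and consequence with the nearest -log10 p. Pkd1l2, Mroh8 and Ctnnb1 were named after their values were seen. Alternatives were p-value filters at 0.001 and 1e-05, 1 mutation per gene and culture, receptor genes left out, members kept, reference-strand base changes, left-out cultures and a replicate block.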

Additional observations from a re-analysis of the deposited data

How the results depend on the processing

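The C-to-A share of culture 1 without the 3 mutations (55.6%) ran from 52.0% to 64.7% under the p-value filters, with 1 mutation per gene and culture, without olfactory and vomeronasal receptor genes and with the 3 mutations kept. Counting only changes listed as C-to-A on the reference strand gave 18.5% (5 of 27), because that setting leaves out the changes listed as G-to-T. The difference between the groups (10.3 points) ran from -0.00854 to 17.5 points over left-out cultures. It turned sign without BrafV600E culture 1. No setting could give an exact permutation p under 0.1, so these p-values say nothing about stability, and leaving out either EV culture sets the BrafV600E cultures against a single one. With cultures 1 and 3 paired as a replicate block it was 13.5 points, where 2 pairs cannot give an exact p under 0.5, and the labels do not say whether equal numbers mark the same mouse. The coding-strand share of G-to-T in culture 1 (53.8%) ran from 50% to 63.6%. The Notch and ephrin lists held 1 to 4 mutations over left-out cultures, and 3 at a p-value of 1e-05 or below, where Jag2 was lost. With depth unknown, a gene without a listed mutation cannot be called unmutated.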
